A study of Rattus norvegicus with 5 samples.

Results

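A group of 5 rat genes, known here by their Ensembl identifiers, were followed in microglia from the offspring of dams that had received *CYP11A1* adenovirus or the control adenovirus. They are ENSRNOG00000003975, ENSRNOG00000034190, ENSRNOG00000016478, ENSRNOG00000031506 and ENSRNOG00000042271, and they make up 5 of the 35495 features in the count table. They were chosen from their counts, because each was above 0 in all 5 libraries and each CYP11A1 library lay well below both controls. The lower level in the CYP11A1 group is therefore a description of the choice, and nothing is concluded from tests of it.

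Sprague Dawley dams received an adenovirus by tail vein on gestational day 8.5, and the RNA of microglia from their male offspring was sequenced. The control group (control 1 and control 3) came from dams given the control vehicle adenovirus, and the CYP11A1 group (CYP11A1 1, 2 and 3) from dams given adenovirus with the full-length *CYP11A1* cDNA in a construct driven by the CMV promoter, which is active in many cell types. Both viruses carried green fluorescent protein, all mothers were virus-treated, and the sequenced rats were not injected themselves. The labels give an age of 3 months, whereas the study's methods describe younger rats, and which dam each rat came from was not stated in the sources used here. A further control library was not analysed here.

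CYP11A1 sits in mitochondria and makes pregnenolone out of cholesterol. Other steroid hormones, progesterone among them, derive from pregnenolone. Microglia are the resident macrophages of the brain. They survey the tissue, take up debris and synapses, and release cytokines. The cells were enriched from minced adult brain on Percoll gradients, which separate cells by density and can carry over other brain and blood cells.

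The tables used here pair no Ensembl identifier with a gene symbol. Of the 35495 features, 0 matched the RefSeq gene table, the 5 genes included. Their names, functions, positions and sequences are therefore not given. For the same reason, the microglial identity of the libraries was not checked against marker genes, and neither was carryover of neurons, astrocytes, oligodendrocytes or blood, nor the transcript of Cyp11a1 itself. Any part of such carryover in the levels below was not tested. The study itself stained the cells for the microglial marker Cd11b, and reports that most but not all were positive. What the files do give for each gene is its feature length and its count in each library.

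Total counts ranged from 9623896 to 13624545 per library. Control 1 and CYP11A1 3, the most deeply sequenced libraries, had the fewest features with a count, 12042 and 10766, against 14953 to 16969 in the other libraries. The 10 most counted features took between 37.5% and 65.4% of the counts of a library. To allow for this, levels are given as CPM, the count scaled to a fixed library size, with the library size corrected by the TMM method of edgeR, whose factors ran from 0.615 in CYP11A1 1 to 1.35 in CYP11A1 2.

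ENSRNOG00000003975 was the most counted of the 5 genes. It had 2216 counts in control 1 and 1336 in control 3. In the CYP11A1 libraries 1, 2 and 3 it had 79, 91 and 281 counts. The groups did not overlap, as the choice required, and the highest CYP11A1 library was CYP11A1 3. Of the 7791 features counted in every library, 7.48% had both controls above every CYP11A1 library. The level of ENSRNOG00000003975 was 149.8 ± 26.5 CPM (SD, n = 2) in the control group and 12.1 ± 5.89 CPM (SD, n = 3) in the CYP11A1 group, a ratio of means of 12.4. In bulk RNA, fewer cells of a type that carries a transcript and less of that transcript per cell cannot be told apart, and this holds for each gene described here.

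ENSRNOG00000042271 was close to it in abundance, with 1899 counts in control 1 and 1128 in control 3. Its counts in CYP11A1 1, 2 and 3 were 109, 27 and 250. With TMM, CYP11A1 1 and CYP11A1 3 were at 16.1 and 16.2 CPM, and CYP11A1 2 was well under them at 1.90 CPM. With library size alone the same libraries were at 9.87, 18.9 and 2.57 CPM, so CYP11A1 2 was lowest on both scales and the other two were level with TMM but not with library size alone. The mean was 127.6 ± 23.9 CPM (SD, n = 2) in the controls and 11.4 ± 8.22 CPM (SD, n = 3) in the CYP11A1 group, a ratio of 11.2.

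ENSRNOG00000034190 had 1509 counts in control 1 and 882 in control 3. It had 35 counts in CYP11A1 1, 31 in CYP11A1 2 and 211 in CYP11A1 3. CYP11A1 3 was again the nearest to the controls, and the other two libraries of that group were much lower. The group means were 100.7 ± 20.0 CPM (SD, n = 2) and 7.002 ± 5.95 CPM (SD, n = 3), which differ by a ratio of 14.4.

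ENSRNOG00000016478 was a less abundant gene, with 409 counts in control 1 and 219 in control 3. It had 10, 7 and 41 counts in CYP11A1 1, 2 and 3. Its means were 26.3 ± 6.81 CPM (SD, n = 2) in the controls and 1.54 ± 1.08 CPM (SD, n = 3) in the CYP11A1 group. The ratio of 17.1 was the highest among the 5 genes, and it rests on few counts in the CYP11A1 group. The exact 95% Poisson interval of the 7 counts in CYP11A1 2 runs from 2.81 to 14.4 counts. The reads have no molecular identifiers, so that such intervals take in counting error and nothing else.

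ENSRNOG00000031506 was the lowest of the 5 genes in counts. It had 226 counts in control 1 and 131 in control 3, and 5, 6 and 27 counts in CYP11A1 1, 2 and 3. The lowest value, in CYP11A1 1, has a Poisson interval from 1.62 to 11.7 counts, so that CYP11A1 1 and CYP11A1 2 cannot be ranked. The means were 15.02 ± 3.07 CPM (SD, n = 2) and 0.969 ± 0.691 CPM (SD, n = 3), a ratio of 15.5.

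**Figure D1:**
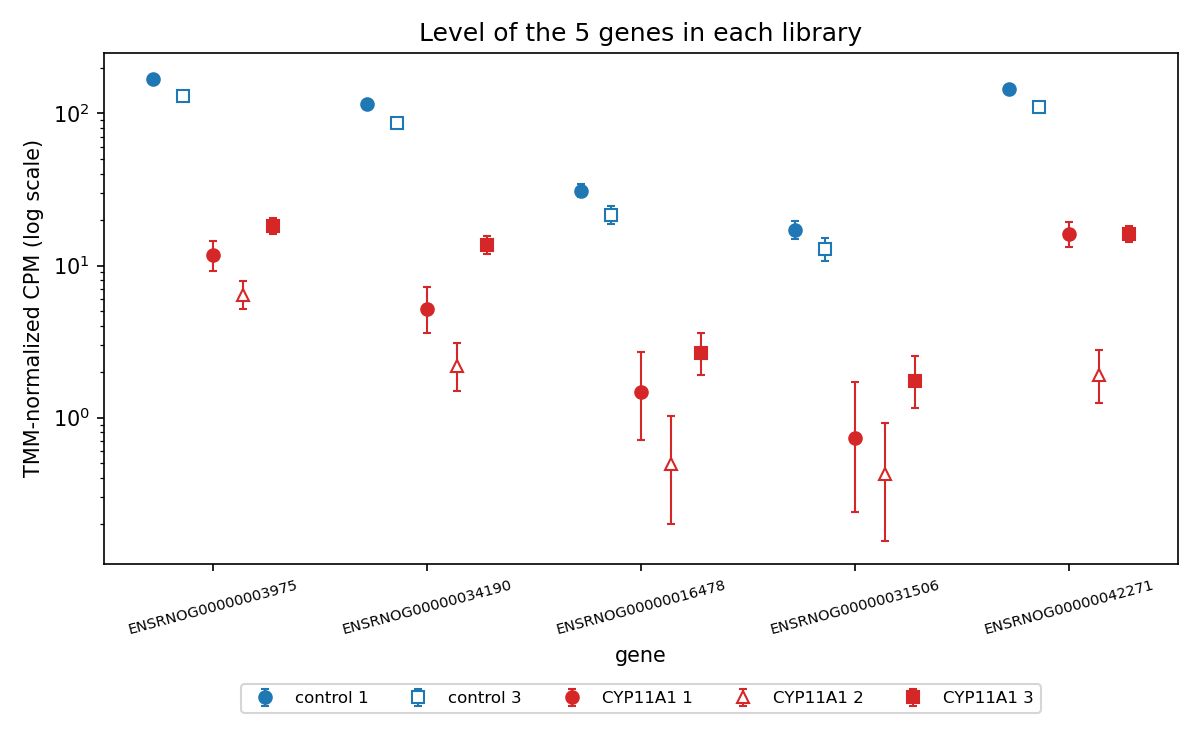
TMM-normalized CPM (log axis) of the 5 genes in each library, with exact 95% Poisson intervals of the counts. For each gene both control libraries (blue) lie above all CYP11A1 libraries (red), as the choice required. CYP11A1 2 is the lowest library for each gene on this TMM scale.

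Together the 5 genes held 459.4 CPM in control 1 and 384.0 CPM in control 3 when scaled to the plain library total. They held 21.6, 15.4 and 61.2 CPM in CYP11A1 1, 2 and 3 on the same scale. That these sums did not overlap between the groups follows from the choice of each gene. Back on the TMM scale, with each control set against each CYP11A1 library, the narrowest ratio of every gene was that of control 3 to CYP11A1 3, and the widest was that of control 1 to CYP11A1 2. For ENSRNOG00000003975 these ratios were 7.21 and 26.3. For ENSRNOG00000042271 they were 6.84 and 75.8, the broadest range of the 5 genes, owing to its low count in CYP11A1 2.

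The fold changes were then taken from the model fitted to all features, edgeR's quasi-likelihood fit on the counts, and are given on the log2 scale for CYP11A1 against control. They were -4.07 for ENSRNOG00000016478, -3.88 for ENSRNOG00000031506, -3.83 for ENSRNOG00000034190, -3.63 for ENSRNOG00000003975 and -3.50 for ENSRNOG00000042271. Their median was -3.83, and the median over all 10346 features tested was 0.15. The standard deviation of the log2 levels within groups (pooled, 2 and 3 libraries) was 0.63 for ENSRNOG00000003975, 0.86 for ENSRNOG00000031506 and 1.03 for ENSRNOG00000016478. It was 1.09 for ENSRNOG00000034190 and 1.46 for ENSRNOG00000042271. The 5 fold changes span less than each of these spreads. The genes were read in the same libraries and vary together, so these spreads do not measure a difference between genes. Whether the genes differ in the size of their change was not tested. A log2 fold change of -3.50 or lower was found in 123 tested features (1.19%).

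All 5 genes passed the filter on low counts. With edgeR (quasi-likelihood, p adjusted by Benjamini-Hochberg, threshold of 0.05), 0 of the 5 genes were called lower, as were 0% of all features tested. By the unadjusted p of the same test, 5 of 5 were called lower, beside 2.79% of the features tested. DESeq2, run on the same features, called 3 of the 5 at its adjusted threshold, beside 0.12% of the features that received an adjusted p. These 3 were ENSRNOG00000003975, ENSRNOG00000034190 and ENSRNOG00000016478. The edgeR fit without a filter on low counts called 0 of the 5 at the adjusted threshold, beside 0.0427% of all features with a count. At the unadjusted threshold it called 5 of 5 lower, beside 511 of these 21072 features. Since the genes were picked on this very contrast, nothing is read from these counts.

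The choice can be placed among the other features by the gap, the level in the lower control divided by the level in the highest CYP11A1 library. The gap was 8.10 for ENSRNOG00000016478, 7.36 for ENSRNOG00000031506, 7.21 for ENSRNOG00000003975, 6.84 for ENSRNOG00000042271 and 6.34 for ENSRNOG00000034190. Of the 7791 features counted in every library, 583 (7.48%) had both controls above every CYP11A1 library, and 554 (7.11%) had the opposite arrangement. With at least 5 counts in every library, which is the lowest count of any of the 5 genes, 404 of 5789 features (6.98%) had both controls on top, and 391 (6.75%) had them at the bottom. In this set the 5 genes held ranks 2 to 6 by the gap. One feature above them had a gap of 9.08 at lower counts (140 and 82 for control 1 and control 3, against 6 in every CYP11A1 library), and the next one below had a gap of 6.07. When a single count per library was enough, 7 others had a gap at or above that of ENSRNOG00000034190. The rule gave no numerical limit, and the list is not the top of this ranking in either set.

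**Figure D2:**
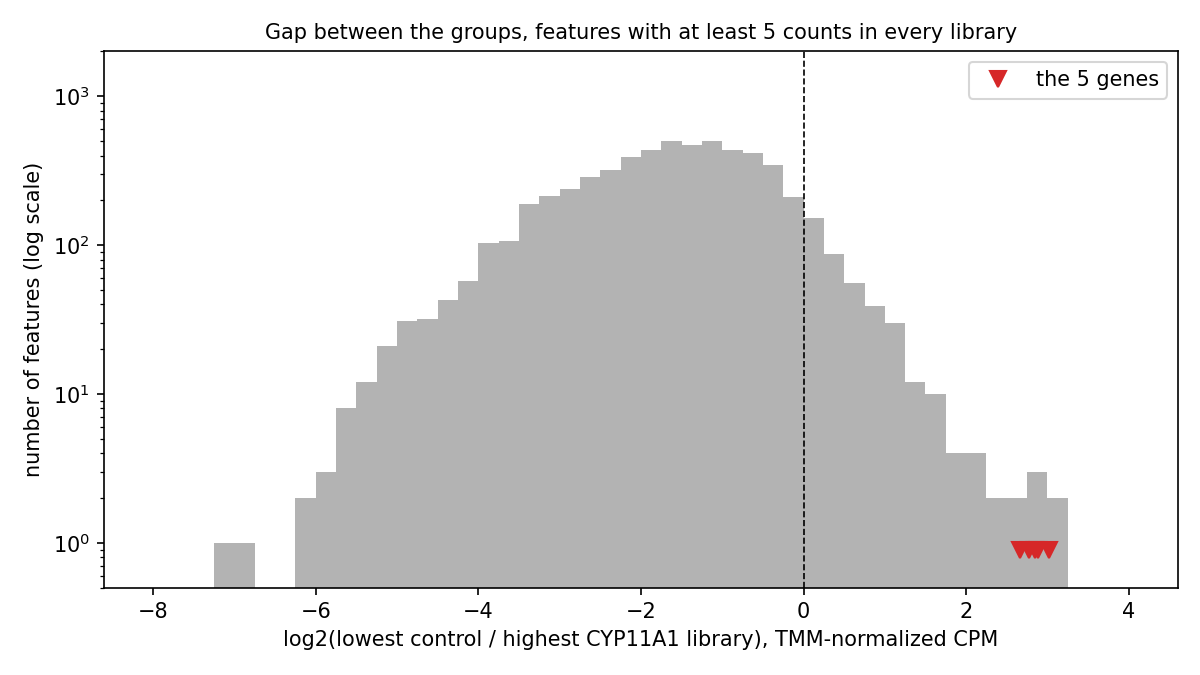
Distribution of the gap between groups, as log2 of the lower control over the highest CYP11A1 library, for the 5789 features that had 5 or more counts in each library (number of features on a log axis). Features right of the dashed line, 404 in all, had both controls above every CYP11A1 library, and red triangles mark the 5 genes near the right end, at gaps of 6.34 to 8.10 on the linear scale.

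The choice did not ask for a difference within a group, but it did bear on the lower control and the highest CYP11A1 library, so the values within groups are also given as a description. Control 1 exceeded control 3 in all 5 genes, under each scaling tried (TMM, DESeq2's size factors and library size alone), with TMM by a factor of 1.29 for ENSRNOG00000003975 (exact 95% binomial interval from 1.20 to 1.38) and 1.45 for ENSRNOG00000016478 (from 1.23 to 1.71). The ratios were 1.31 for ENSRNOG00000042271, 1.33 for ENSRNOG00000034190 and 1.34 for ENSRNOG00000031506. These intervals overlap, so that the 5 genes shared a ratio between the controls within counting error. Control 1 was higher in 50.7% of the 5789 features, and on the log2 scale the 5 differences lay between the 58.5 and 63.2 percentiles of these features. The controls thus differed for these genes by an amount common among all features.

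In the CYP11A1 group the library with the highest level was CYP11A1 3 in all 5 genes, under each of the scalings, and it was so in 41.8% of the 5789 features. CYP11A1 3 exceeded the mean of CYP11A1 1 and 2 by 1.07 on the log2 scale for ENSRNOG00000003975 and by 2.02 for ENSRNOG00000034190. The other 3 genes lay between, at 1.55 for ENSRNOG00000042271, 1.63 for ENSRNOG00000016478 and 1.64 for ENSRNOG00000031506. These values stood at the 73.9 to 91.3 percentiles, and the median feature differed by 0.13. With library size alone the median was 0.49 and the share with CYP11A1 3 highest 47.4%, and with DESeq2's size factors they were 0.05 and 39.8%. For ENSRNOG00000042271 the ratio of CYP11A1 3 to CYP11A1 1 was 1.005 with TMM, with an interval from 0.799 to 1.27, and 1.91 with library size alone (from 1.52 to 2.42). For ENSRNOG00000016478 it was 1.80 with TMM (from 0.885 to 4.02) and 3.42 with library size alone (from 1.68 to 7.66). For ENSRNOG00000031506 it was 2.37 (from 0.898 to 7.87) and 4.505 (from 1.71 to 14.98). In these 3 genes CYP11A1 3 was thus set above CYP11A1 1 beyond counting error with library size alone and not with TMM.

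Both patterns, control 1 above control 3 and CYP11A1 3 highest in its group, occurred together in 29.9% of the 5789 features. Control 1 and CYP11A1 3 are also the libraries with the fewest features detected, and the part of this in the levels of the 5 genes was not tested. The order of CYP11A1 1 and CYP11A1 2 depended on the scaling. With TMM, CYP11A1 1 was higher in 5 of the 5 genes, and with library size alone in 3 of the 5, since ENSRNOG00000003975 and ENSRNOG00000031506 turned to -0.28 and -0.33 on the log2 scale. Among the 5789 features the shares were 55.3% with TMM and 23.1% with library size alone. For ENSRNOG00000031506, at 5 and 6 counts, the interval of the ratio ran from 0.421 to 6.86, and these libraries are not ordered. For ENSRNOG00000042271 the CYP11A1 1 level was 8.45 times that of CYP11A1 2 with TMM (exact 95% binomial interval from 5.503 to 13.4), and the log2 difference was 3.08 with TMM and 1.94 with library size alone. This stood at the 97.1 percentile of the 5789 features, a place that scaling cannot change, since it shifts all features alike.

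**Figure D3:**
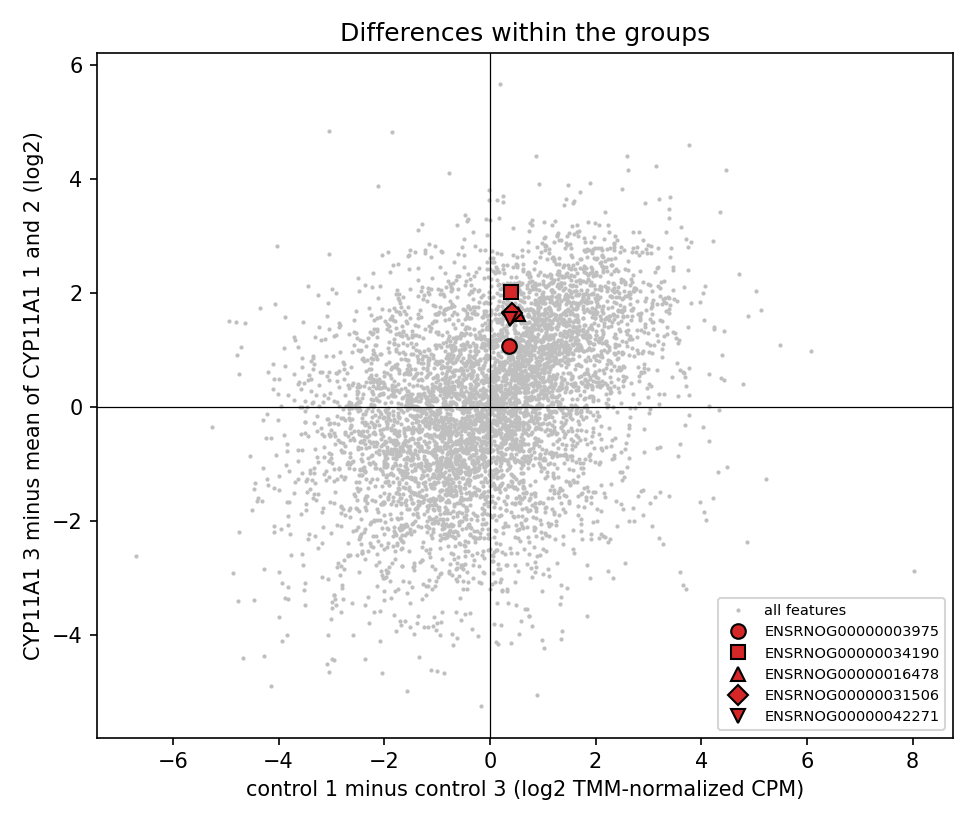
Differences within the groups for the 5789 features that had 5 or more counts in each library, on the log2 scale of TMM-normalized CPM, with control 1 minus control 3 across and CYP11A1 3 minus the mean of CYP11A1 1 and 2 upwards. The 5 genes (red) lie together at 0.36 to 0.53 across and 1.07 to 2.02 upwards, inside the cloud of all features (grey).

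The make-up of the 5-gene total needs no scaling between libraries, because each gene is set against the summed counts of the 5 in the same library. In control 1, ENSRNOG00000003975 took 35.4% of that total, ENSRNOG00000042271 30.3%, ENSRNOG00000034190 24.1%, ENSRNOG00000016478 6.53% and ENSRNOG00000031506 3.61%. In control 3 the shares, in the same order of genes, were 36.1%, 30.5%, 23.9%, 5.93% and 3.54%. In CYP11A1 3 they were 34.7%, 30.9%, 26.0%, 5.06% and 3.33%. The exact 95% binomial intervals of these 3 libraries overlapped for every gene. The proportions of the 5 transcripts were thus alike in both controls and in CYP11A1 3 within counting error, although their sum in CYP11A1 3 was 810 counts against 6259 and 3696 in the controls.

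The proportions differed in the other CYP11A1 libraries, which held 238 and 162 counts of the 5 genes. In CYP11A1 1, ENSRNOG00000042271 took 45.8% of the total (interval from 39.3% to 52.4%), above its share in either control, and ENSRNOG00000034190 took 14.7% (from 10.5% to 19.9%), below it. In CYP11A1 2, ENSRNOG00000042271 took only 16.7% (from 11.3% to 23.3%) and ENSRNOG00000003975 took 56.2% (from 48.2% to 63.9%). The 2 libraries therefore departed from the controls in opposite directions for ENSRNOG00000042271. The shares in a library add up to a whole, so a higher share of any gene lowers the others. The departures of ENSRNOG00000034190 in CYP11A1 1 and of ENSRNOG00000003975 in CYP11A1 2 are thus not separate from that of ENSRNOG00000042271. Their own part was not tested. For ENSRNOG00000016478 and ENSRNOG00000031506, the intervals of the shares in CYP11A1 1 and CYP11A1 2 overlapped those of the controls. These shares rest on 5 to 10 counts, and how small a departure could be seen at such counts was not tested. Reads amplified from low amounts of RNA can vary more than counting error allows, and these intervals do not include that variation.

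**Figure D4:**
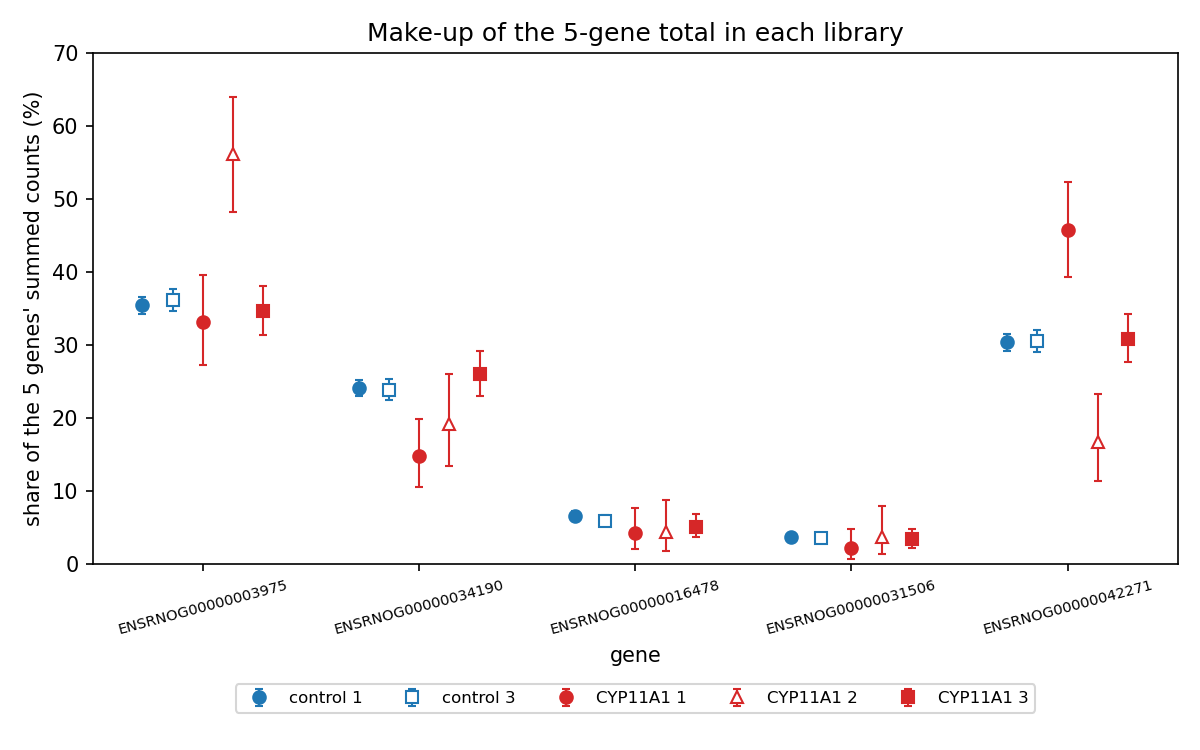
Share of each gene in the summed counts of the 5 genes, in percent, for each library, with exact 95% binomial intervals. Both controls and CYP11A1 3 coincide for every gene, whereas ENSRNOG00000042271 reaches 45.8% in CYP11A1 1 and 16.7% in CYP11A1 2.

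Levels of different genes were compared per length, as the deposited FPKM (counts scaled to feature length and library total). The features were 816 bp long for ENSRNOG00000003975, 824 bp for ENSRNOG00000042271, 908 bp for ENSRNOG00000031506, 1197 bp for ENSRNOG00000016478 and 1493 bp for ENSRNOG00000034190. All were shorter than the median tested feature of 1919 bp, and 3 of the 5 were below the lower quartile of 1132 bp. In the controls the FPKM were 184.7 ± 20.6 for ENSRNOG00000003975, 155.7 ± 19.0 for ENSRNOG00000042271 and 67.8 ± 9.05 for ENSRNOG00000034190 (SD, n = 2). They were 22.04 ± 4.29 for ENSRNOG00000016478 and 16.6 ± 2.32 for ENSRNOG00000031506 (SD, n = 2). Both controls had this order of genes. The first pair and the last pair each lay within the sum of their SDs, and the steps on either side of ENSRNOG00000034190 were larger than the spread between the controls.

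In the CYP11A1 group the FPKM were 15.1 ± 9.47 for ENSRNOG00000003975, 12.7 ± 9.92 for ENSRNOG00000042271 and 4.92 ± 4.98 for ENSRNOG00000034190 (SD, n = 3). They were 1.30 ± 1.12 for ENSRNOG00000016478 and 1.12 ± 0.974 for ENSRNOG00000031506 (SD, n = 3). The means kept the order seen in the controls, with overlapping ranges between libraries. Within each of the 3 libraries, ENSRNOG00000042271 exceeded ENSRNOG00000034190 (11.98 and 2.12 FPKM in CYP11A1 1, 3.12 and 1.98 in CYP11A1 2, and 22.9 and 10.7 in CYP11A1 3), and ENSRNOG00000034190 exceeded ENSRNOG00000016478. The first pair changed places in CYP11A1 1, where ENSRNOG00000042271 was above ENSRNOG00000003975, and the last pair in CYP11A1 2, at 6 and 7 counts. By FPKM, ENSRNOG00000003975 was the 383rd and 346th feature from the top in control 1 and control 3. It was at rank 1730, 2159 and 1518 in CYP11A1 1, 2 and 3. In the controls it stood above 96.8% and 97.7% of the features detected, and in the CYP11A1 libraries above 85.9% to 89.1%. ENSRNOG00000042271 stood above 96.4% and 97.4% of them in the controls and above 71.6% to 91.2% in the CYP11A1 libraries, and ENSRNOG00000034190 above 93.8% and 95.5%, and then 62.9% to 77.9%. ENSRNOG00000016478 stood above 89.0% and 91.0% in the controls and above 36.9% to 57.5% in the CYP11A1 libraries. ENSRNOG00000031506 stood above 87.1% and 89.5%, and then 39.3% to 49.5% in CYP11A1 2 and 1 and 54.2% in CYP11A1 3. The 3 abundant genes stayed in the upper part of the detected features in the CYP11A1 group, and the 2 scarce ones lay near the middle.

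The correlations among the 5 genes over the 5 libraries, on log2(CPM + 1), are a description, since the choice fixed the step between the groups. Pearson's r (n = 5 libraries) was highest between ENSRNOG00000003975 and ENSRNOG00000016478, at 0.9995. It was lowest between ENSRNOG00000031506 and ENSRNOG00000042271, at 0.940. The 4 pairs with ENSRNOG00000042271 lay between 0.940 and 0.966 and the 6 others between 0.989 and 0.9995, so that ENSRNOG00000042271 was the member least like the rest.

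The features most like each gene were sought by the same r among those that reached 10 counts in each library, 3 for each gene. This minimum kept ENSRNOG00000016478 and ENSRNOG00000031506 from being chosen, although their r with ENSRNOG00000003975, 0.9995 and 0.997, was above that of any feature chosen for it. Of the 15 places, 5 went to others of the 5 genes, and the remaining places went to 8 features with r of at least 0.989 (n = 5). Their log2 fold changes lay between -2.97 and -0.93, smaller in size than those of the 5 genes. ENSRNOG00000019974 was chosen for both ENSRNOG00000003975 and ENSRNOG00000042271. It had 553 and 326 counts in the controls and 43, 30 and 115 in CYP11A1 1, 2 and 3, and a log2 fold change of -2.81. ENSRNOG00000052620 was chosen for both ENSRNOG00000003975 and ENSRNOG00000016478. It had 631 and 445 counts in the controls and 72, 77 and 209 in the CYP11A1 libraries, and a log2 fold change of -2.22. Both share with the 5 genes the highest CYP11A1 value in CYP11A1 3. With 5 libraries, 44 or 45 features had the same rank order as a given gene, out of 4776 or 4777 candidates.

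The fold changes were then computed with other fits and with libraries left out. Every value of every gene was negative, from -4.88 to -3.09 over 73 alternative values. The choice put every CYP11A1 library well below both controls, so the sign was largely set beforehand. Of the single libraries, CYP11A1 3 moved the fold change most in 4 of the 5 genes, and CYP11A1 2 did so for ENSRNOG00000042271, to -3.10. Without CYP11A1 3, the log2 fold change was -4.82 for ENSRNOG00000034190, -4.88 for ENSRNOG00000016478 and -4.76 for ENSRNOG00000031506, and it was -4.05 for ENSRNOG00000003975 and -3.86 for ENSRNOG00000042271. The gap can only stay or widen when a library is left out. Without CYP11A1 3 it was 11.2 for ENSRNOG00000003975, 16.7 for ENSRNOG00000034190, 14.6 for ENSRNOG00000016478 and 17.4 for ENSRNOG00000031506, and was 6.88 for ENSRNOG00000042271, whose gap was widest without control 3, at 8.93. With control 1 and CYP11A1 3 both left out, which leaves 1 control against 2 CYP11A1 libraries, the log2 fold changes lay between -4.60 and -3.65.

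**Figure D5:**
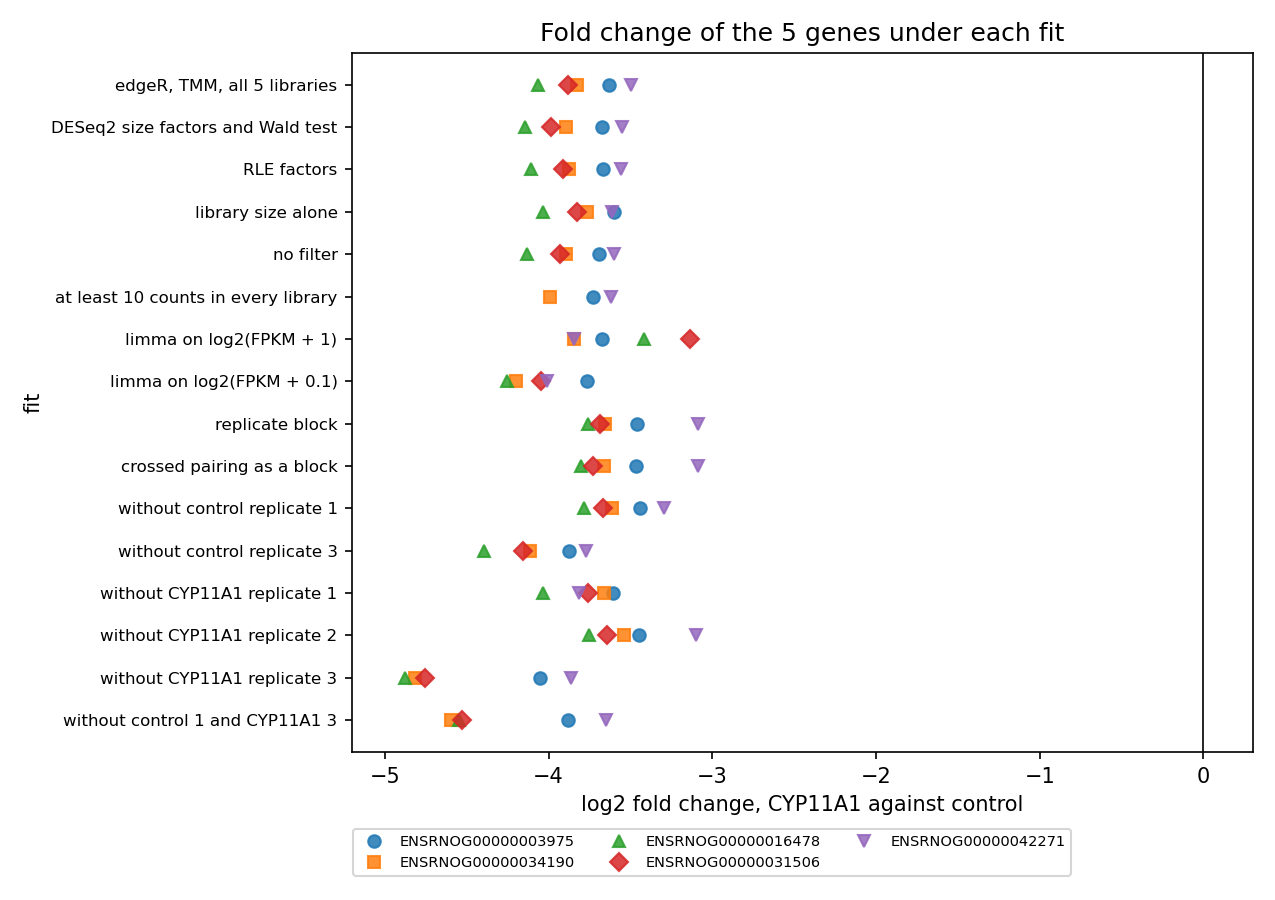
Log2 fold change (CYP11A1 against control) of the 5 genes under each fit, with the fit on all 5 libraries at the top. All points lie between -4.88 and -3.09, and the fit without CYP11A1 3 moves ENSRNOG00000034190, ENSRNOG00000016478 and ENSRNOG00000031506 farthest from 0.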

How the data were processed

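Groups and replicate numbers came from the sample labels, and table columns were matched to samples by title. The authors deposited raw read counts per feature and FPKM, with one column per library. The submitters' processing notes name HISAT2 2.0.4 and HTSeq 0.9.1. The genome build and annotation are not given in the sources used here. The study's methods describe full-length cDNA amplified from low input, and the labels a small RNA kit. Feature lengths were recovered from counts, totals and FPKM.

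Counts were fitted with edgeR 4.0.16 (R 4.3.3) by glmQLFit (legacy set to FALSE) and glmQLFTest, with TMM and filterByExpr (minimum count of 10), and with Benjamini-Hochberg adjustment over 10346 features. DESeq2 1.42.0 and limma 3.58.1 served as alternatives. Intervals were computed with scipy 1.17.1 at the 95% level. Total counts of 9623896 to 13624545 per library set the counting precision.

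The members and lists were chosen with earlier results of these data known. The features named are the 5 genes and, of those most alike in pattern, the ones picked for more than one gene, a choice made after their values were seen. Marker lists, neighbouring genes and gene families were planned and not run, since identifiers could not be paired with symbols.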

Additional observations from a re-analysis of the deposited data

How the results depend on the processing

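The count of features called at the adjusted threshold of 0.05 was 0 in the quasi-likelihood fit of edgeR (439 at the unadjusted threshold) and 0 in 13 of the 16 alternatives, among them each fit with 1 library left out, where a lone control is assumed to vary like the other libraries. The exceptions were DESeq2, with 11 features, the edgeR fit of all features, low counts included, with 9, and the unadjusted threshold, with 439, and the cause was not tested. Of the 73 alternative log2 fold changes of the 5 genes, 72 stayed within 1 SD of the value reported and none changed sign. The exception was ENSRNOG00000031506 without CYP11A1 3, and its values with 1 library left out ran from -4.76 to -3.64. The sign was largely set by the choice of the genes. The SD is that of single libraries within groups, 0.63 to 1.46 on the log2 scale, so staying within it is a weak limit. The filter of at least 10 counts in every library removed ENSRNOG00000016478 and ENSRNOG00000031506 and gave no value for them. With 1 library left out, the gap, which can then only stay or widen, ran from 7.21 to 11.2 for ENSRNOG00000003975, from 6.34 to 16.7 for ENSRNOG00000034190 and from 7.36 to 17.4 for ENSRNOG00000031506. The upper values are those without CYP11A1 3, and leaving out control 1 as well gave the same 11.2, 16.7 and 17.4. The number of features with both controls above every CYP11A1 library was 583, and lay between 404 and 565 under other scalings or a higher minimum. Of the 15 places for features alike in pattern, 11 also had a Spearman's rho of 1.

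In the fit with a replicate block, made from the 4 libraries whose numbers occur in both groups, no feature was called (0, and 110 at the unadjusted threshold), and the log2 fold changes of the 5 genes lay between -3.76 and -3.09. Whether same-numbered libraries shared more than a number was not stated in the sources used here. The correlation of their deviations across 10346 features was -0.266 over 2 pairs, so no positive likeness was seen. With the crossed pairing, chosen after this was seen, as were the gap without a library, the order under other scalings and leaving out control 1 with CYP11A1 3, 0 features passed (358 at the unadjusted threshold). The alternative planned for cell type markers was not run for want of gene symbols.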
